A study of Mus musculus with 10 samples.

Results

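Thymocytes of young mice with a hypomorphic Ikaros allele were compared with those of wild-type (WT) mice of the same age, before any tumour. Of the 10 arrays in the series, 4 belonged to this comparison: 2 arrays of unfractionated thymocytes from IkL/L mice and 2 from WT mice, all 3 weeks of age and on a C57Bl6 background, chosen by their titles and sample descriptions. The other 6 arrays held advanced thymic tumours of homozygous IkL/L mice, whose age was not given in the labels. They were read to see where a difference between the young groups stood in tumours. They also entered the fit as a group of their own, which left 7 residual degrees of freedom, against 2 for the 4 thymocyte arrays alone. The errors, intervals and p-values below therefore rest largely on the spread among tumours. Each array was described as 1 mouse and the titles carried different numbers; nothing further said how the RNA was obtained, so p-values measure the spread between these arrays. The cells were not sorted, and the sources used here did not say whether the young IkL/L thymuses already held transformed cells. In RNA from unfractionated cells, fewer cells of a type and less RNA per cell cannot be told apart.

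Ikaros, encoded by Ikzf1, is a zinc finger protein of lymphoid cells that binds DNA and recruits chromatin complexes such as NuRD and SWI/SNF. The IkL allele carries a reporter insertion in the gene that lowers the amount of Ikaros protein, and homozygous mice are known to develop T-cell leukaemia with active Notch signalling. In the thymus, Notch1 directs progenitors into the T lineage: cleavage of the receptor frees an intracellular part that joins RBPJ on genes such as Hes1, Dtx1 and Ptcra. Signalling is high in double-negative cells, which lack CD4 and CD8, and falls as cells become double-positive and then mature into single-positive T cells. The comparison of young thymuses asks which of these programmes differed before tumours appeared.

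RNA was measured on Affymetrix MG_U74Av2 arrays, on which a gene is read by 1 or more probe sets of short oligonucleotides. Values are intensities on a common scale, on which each array has a mean of 300.2 once the highest and lowest 2% are trimmed, and the number of arrays limits their precision. The 4 thymocyte arrays had medians of 90.6 to 105.3, and 18.1% to 21.1% of their values lay below 16, the floor used here for dim signals. They came from 1 chip lot and 1 day. Of the tumours, only tumour 6 was of that lot and only tumours 4 and 6 were of that day. Tumour state and batch therefore cannot be fully told apart where tumours are set beside young thymocytes. Fluidics runs were inferred from the recorded hybridization times. By these, WT replicate 1 was in run 1, whereas WT replicate 2 and both IkL/L arrays were in run 2. Both WT arrays were in fluidics module 2 and the IkL/L arrays in modules 4 and 1, so genotype and module cannot be told apart among these 4 arrays, and a fit with module as a block rests on the tumours. WT replicate 1 also stood apart in sex-linked genes. Xist, the RNA that silences an X chromosome in females, had an intensity of 94.4 there, against 5.7 in WT replicate 2 and 4.6 and 6.5 in the IkL/L arrays. The Y-linked Eif2s3y had 27.6 in WT replicate 1 against 506.2 in WT replicate 2 and 335.9 and 535.8 in the IkL/L arrays. The Eif2s3y probe set is of a type that can read related transcripts. Sex-linked level and fluidics run cannot be told apart for WT replicate 1. The ratio of 3′ to 5′ signal was 0.987 to 1.06 for Gapdh and 1.69 to 2.33 for beta-actin in the thymocyte arrays, highest for both in IkL/L replicate 2.

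The thymocyte label was borne out by the markers in all 4 arrays. Cd8a, a coreceptor of double-positive and CD8 cells, had 7220.9 and 8471.6 in WT and 5891.4 and 6656.1 in IkL/L thymocytes. Rag1, which cuts DNA for antigen receptor rearrangement, had 7415.7 and 11019.7 in WT and 8391.8 and 8617.3 in IkL/L. Cd4 had 2512.4 and 2005.5 against 1558.7 and 2138.3, and Cd3e, a chain of the T-cell receptor complex, had 5392.1 and 3738.2 against 4173.5 and 5910.8. Of these 4 genes, Cd8a alone had separate groups, and its limma log2 difference of -0.32 ± 0.66 (SE) was below its error. That error includes the spread of the tumours, at 991.9 to 3983.6.

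The young IkL/L thymocytes differed little from WT at the resolution of 2 against 2 arrays. Of 7172 probe sets bright enough to test, 1 passed an adjusted p of 0.05 in limma (0.0139%); it was lower in IkL/L thymocytes (0.0139%), and 0 passed with higher values (0%). At an unadjusted p of 0.05 there were 230 probe sets (3.21%), with 147 higher (2.05%) and 83 lower (1.16%) in IkL/L. The split between directions moved with the scaling: it was 114 higher and 118 lower after quantile normalization, and 80 higher and 134 lower after each array was centred on its median, which shifted the median difference of all probe sets from 0.035 to -0.11 on the log2 scale. It also moved with single arrays, to 129 higher and 48 lower without WT replicate 1, 213 and 56 without WT replicate 2, 112 and 111 without IkL/L replicate 1, and 71 and 91 without IkL/L replicate 2. All differences below are relative to the deposited scale, in which that median was 0.035.

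Arrays of the same genotype were about as far apart as arrays of different genotype. The median absolute log2 difference was 0.302 between the WT arrays and 0.262 between the IkL/L arrays. Across genotypes it was 0.276 and 0.28 for WT replicate 2 against the IkL/L arrays, and 0.328 and 0.333 for WT replicate 1. More than 2-fold apart were 702 probe sets within WT (9.79%) and 575 within IkL/L (8.02%). Across genotypes the number ran from 545 (7.6%), for WT replicate 2 and IkL/L replicate 1, to 879 (12.3%), for WT replicate 1 and IkL/L replicate 2. The pairs that held WT replicate 1 had the 3 highest medians of the 6.

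**Figure D1:**
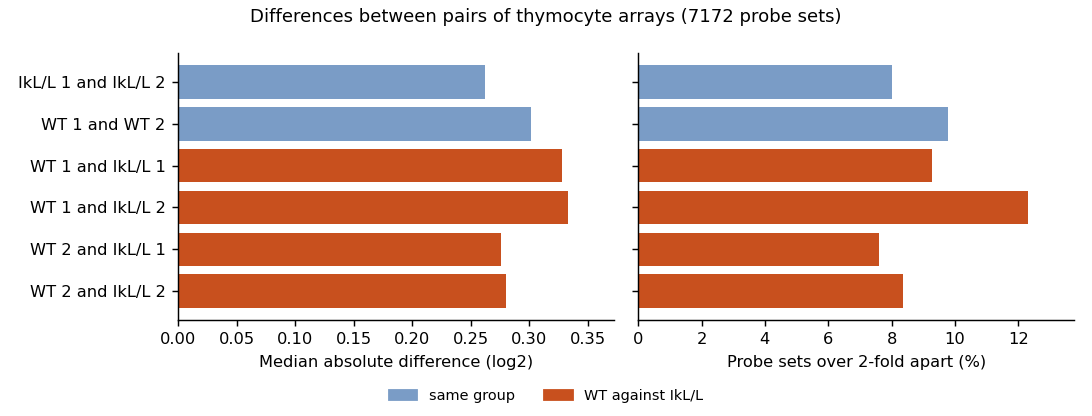
Bars show, for each of the 6 pairs of thymocyte arrays, the median absolute log2 difference (left) and the percentage of the tested probe sets more than 2-fold apart (right). Pairs of the same group (blue, 0.262 and 0.302) lie among the pairs of WT against IkL/L (orange, 0.276 to 0.333).

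The comparison bounded many genes, though not all. The 95% interval of the difference lay within 2-fold either way for 2950 probe sets (41.1%), and the median interval extended 0.82 on the log2 scale, or 1.77-fold, to either side. For the remaining probe sets the interval reached 2-fold in at least 1 direction or lay wholly beyond it. Both IkL/L arrays lay outside the range of the WT arrays in 2828 probe sets (39.4%), 1520 of them higher (21.2%) and 1308 lower (18.2%). That split was 1290 and 1405 after quantile normalization and 855 and 2105 after median centring. For genes read by 1 probe set each, 5476 in all, 20.8% were higher and 18.5% lower without overlap. At an unadjusted p of 0.05, 1.94% were higher and 1.1% lower. Of these genes, 43.6% had an interval within 2-fold and 0 passed the adjusted threshold. The counts of each list below are to be read beside these shares.

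The probe set that passed was 160799_at, for which the annotation used here gave no gene symbol. Its intensity was 177.6 and 155.3 in WT thymocytes and 15.2 and 7.6 in IkL/L thymocytes. The groups were far apart, and both IkL/L values were under the floor of 16. The level was therefore at least 10.4-fold lower in IkL/L thymocytes (limma log2 difference -3.38 ± 0.26 SE, adjusted p = 0.000725). In the 6 tumours it was between 3.8 and 23.3 with a median of 5.15, so that all 6 lay below both WT arrays. Both IkL/L values and every tumour but the highest (the next had 7.9) were raised to 16 before the fit. Those arrays then showed no spread among themselves, so the SE and the adjusted p depend on the floor and do not measure precision. The probe set entered the test through its brightness in WT thymocytes. Over the 13 alternatives in which it was tested the log2 difference ranged from -3.95 to -2.43 and the adjusted p from 0.000272 to 0.999. The call was lost with a floor at the 10th percentile (adjusted p = 0.239), with the 4 thymocyte arrays alone (0.0765), with a variance that follows intensity (0.999) and with fluidics run (0.0961) or module (0.237) as a block. Without either WT array it was not bright enough on enough arrays to be tested, and without either IkL/L array it still passed (adjusted p = 0.0215 and 0.0211).

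No other probe set passed, so the genes that follow are given as values. They were taken by rank of unadjusted p, 15 in each direction, among genes whose groups did not overlap. Their median intensity over all arrays was 127.2, against 295.2 for all tested probe sets, so they tended to be dim. The WT and IkL/L arrays that set these differences also set the distance of the tumours from each young group, so the tumour values are a description.

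Among the genes with higher values in IkL/L thymocytes, Cd96 showed the greatest log2 difference. It encodes an immunoglobulin superfamily receptor of T and natural killer cells. Its intensity was 102.3 and 18.9 in WT and 373.8 and 705.4 in IkL/L thymocytes. The groups were separate but each was spread widely, and the log2 difference was 3.55 ± 0.83 (unadjusted p = 0.00157, adjusted p = 0.938). It was 4.76 without WT replicate 1 and 2.33 without WT replicate 2 (adjusted p = 0.381 and 1). The 6 tumours had 35.4 to 190.8 with a median of 74.85, all below both IkL/L thymocyte arrays.

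Npy, the precursor of neuropeptide Y, had 14.5 and 23.1 in WT and 134.3 and 179.3 in IkL/L thymocytes, a log2 difference of 3.01 ± 0.76 (adjusted p = 0.999). Its tumour values ran from 20.6 to 135, and 4 of 6 lay between the groups. The probe set for Cask, a membrane scaffold of the guanylate kinase family, was at the floor in both WT arrays, with 13 and 15.8, and had 48.3 and 107.4 in IkL/L thymocytes. This probe set is of a type that can read related transcripts. It was at least 4.5-fold higher in IkL/L (log2 difference 2.17 ± 0.36, adjusted p = 0.268), and the 6 tumours had 101.9 to 152. H2bc22, a histone H2B gene, had 53.2 and 44.9 in WT and 207.7 and 347.9 in IkL/L thymocytes (log2 difference 2.46 ± 0.56, adjusted p = 0.938). Histone genes are near copies of each other, so the probe set may read several. Its tumour values, from 109.3 to 447.6, all lay above both WT arrays.

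Inppl1 encodes SHIP2, a phosphatase that acts on phosphoinositides. Its intensity was 141.4 and 51.9 in WT, 226.9 and 260.8 in IkL/L thymocytes and 460.9 to 747.8 in tumours. The order was therefore WT, young IkL/L and tumours without overlap, with a log2 difference between the young groups of 1.51 ± 0.43 (adjusted p = 0.999). It was 2.23 without WT replicate 1 and 0.78 without WT replicate 2 (adjusted p = 0.381 and 1). Pou2af1, a coactivator of octamer factors in B cells, had 13 and 20 in WT, 53 and 63.2 in IkL/L thymocytes and 56.3 to 137.3 in tumours, a log2 difference of 1.69 ± 0.44 between the young groups (adjusted p = 0.999). Dcaf12, a substrate receptor of a cullin ubiquitin ligase, was among the brightest of these genes. It had 592.5 and 376.9 in WT and 1469.5 and 1278.4 in IkL/L thymocytes (log2 difference 1.54 ± 0.39, adjusted p = 0.999), while the tumours, at 442.2 to 1041.3, all lay below both IkL/L arrays. Gpn3, a GTPase in the assembly of RNA polymerase II, had a close WT pair, 151.9 and 148.3, against 377.6 and 451.5 in IkL/L thymocytes and 199 to 308 in tumours (log2 difference 1.46 ± 0.29, adjusted p = 0.665).

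The other 7 genes of this direction had log2 differences of 0.86 to 1.87 and adjusted p-values of 0.938 or more. They were G6pc, the catalytic subunit of glucose-6-phosphatase, Atp2a1, a calcium pump of fast muscle, Sypl2, a synaptophysin-like membrane protein, Ranbp10, a Ran-binding protein, Nfic, a transcription factor of the nuclear factor I family, Cilp2, a cartilage matrix protein, and Cx3cl1, the chemokine fractalkine. The smallest difference was that of Cilp2, with 411.9 and 421.7 in WT and 695.4 and 817.6 in IkL/L thymocytes. Its probe set, like that of Cask, can read related transcripts. Nfic had 47.3 and 35.1 against 145.4 and 153.3, and its tumours had 88.5 to 315.9. For Cx3cl1, the IkL/L arrays had 66 and 198.9, and the gene's other tested probe set had overlapping groups.

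Among the genes with lower values in IkL/L thymocytes, Napsa came closest to the threshold. It encodes napsin A, an aspartic protease, and lies on chromosome 7. Its intensity was 234.4 and 155.4 in WT and 47.7 and 26.4 in IkL/L thymocytes. The groups were separate and the log2 difference was -2.43 ± 0.36 (unadjusted p = 4.88e-05, adjusted p = 0.175). The 6 tumours had 6 to 25.3 with a median of 13.6, all below both IkL/L arrays. With the floor at the 30th percentile Napsa passed (adjusted p = 0.022), and over its 14 alternatives the adjusted p ran from that value to 1.

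Fxyd2, the gamma subunit of the sodium pump, had 149 and 108.4 in WT and 25.5 and 21.4 in IkL/L thymocytes, a log2 difference of -2.44 ± 0.57 (adjusted p = 0.938), and 9.9 to 49.4 in tumours. Eya3, a phosphatase and transcriptional coactivator of the eyes absent family, had 121.8 and 144.9 against 40.8 and 33.3 (log2 difference -1.85 ± 0.5, adjusted p = 0.999), and 19.1 to 64.8 in tumours. For both genes all 6 tumours lay below both WT arrays. Napsa, Fxyd2 and Eya3, like 160799_at, were brighter than the array median on the 2 WT arrays alone. They therefore entered the test through their WT level and were not tested without either WT array. Nnt, a mitochondrial enzyme that passes hydride between NADH and NADPH, had 546.3 and 619.2 in WT, 293.9 and 331.7 in IkL/L thymocytes and 232.2 to 369.7 in tumours (log2 difference -0.9 ± 0.26, adjusted p = 0.999). As background, the C57BL/6J substrain carries a deletion in Nnt. The labels did not give the substrain, and its part in these values was not tested.

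For the other genes of this direction, except Emc3, most tumours lay above both young IkL/L arrays. Rnh1, the ribonuclease inhibitor, had 269.6 and 226.3 in WT and 49.2 and 38 in IkL/L thymocytes, a log2 difference of -2.51 ± 0.68 (adjusted p = 0.999), and 41.8 to 233.9 in tumours with a median of 189.3. H1f2, a linker histone, had 188.1 and 265.2 against 86.2 and 28.8 (log2 difference -2.16 ± 0.6, adjusted p = 0.999), while the 6 tumours, at 114.3 to 329.1, lay above both IkL/L arrays. Os9, which binds misfolded glycoproteins in the endoplasmic reticulum, had 312 and 217.1 against 56.3 and 66 (log2 difference -2.09 ± 0.64, adjusted p = 0.999) and 49 to 225.2 in tumours. In Pstk, a kinase of selenocysteine synthesis, Coq5, a methyltransferase of coenzyme Q synthesis, Wdr46, a nucleolar protein, and Rexo2, an RNA exonuclease, all 6 tumours also lay above both IkL/L arrays. The log2 differences of those 4 genes ran from -1.64 in Wdr46 to -0.86 in Rexo2. The remaining genes of this direction were Emc3, of the membrane protein insertion complex, Vps45, of vesicle fusion, the ubiquitin ligase Rnf34 and Tmem160, with log2 differences of -1.21 to -0.89. In Emc3, 0 of 6 tumours lay above both IkL/L arrays. In Emc3, Vps45 and Rnf34 all 6 tumours lay below both WT arrays. Tmem160 was the brightest, with 2013.5 and 2141.9 in WT, 1167.6 and 691.3 in IkL/L thymocytes and 1147.4 to 2228.3 in tumours.

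**Figure D2:**
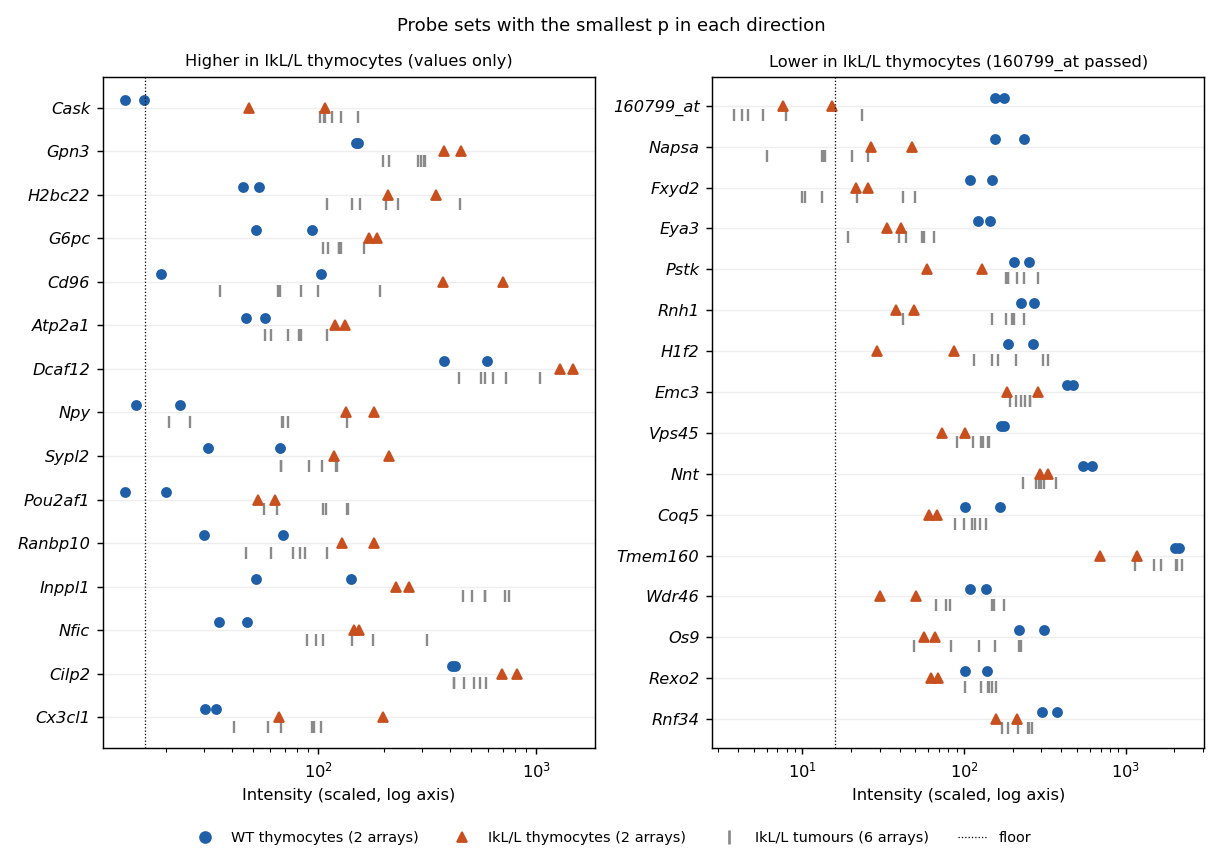
Intensity on a log axis of the genes with the smallest p in each direction, with WT thymocytes as circles, IkL/L thymocytes as triangles, the 6 tumours as grey bars and the floor of 16 as a dotted line. In 160799_at and Napsa all tumours lie below both WT arrays, in Inppl1 all lie above both IkL/L arrays, and in Cd96 all lie below both IkL/L arrays.

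The Ikaros gene itself gave no separation of the genotypes. Ikzf1 had 625.9 and 400.6 in WT and 559.5 and 263.9 in IkL/L thymocytes by its brighter probe set. The groups overlapped and the log2 difference was -0.38 ± 0.48 (adjusted p = 0.999). The other probe set had 101.8 and 107.2 against 124.3 and 122.2, a log2 difference of 0.24 ± 0.56. The sources used here did not say where these probes lie relative to the insertion, so the mRNA signal does not check the genotype labels. In tumours the brighter probe set had 150.6 to 387.6 with a median of 208.9, and all 6 lay below both WT arrays. Of the related factors, Ikzf4, which encodes Eos, had 125.3 and 119.7 in WT and 191.1 and 166.6 in IkL/L thymocytes (log2 difference 0.54 ± 0.29, unadjusted p = 0.0885). Of 15 tested chromatin partners of Ikaros, 0 passed the test and 13 had an interval within 2-fold. Chd4, the motor of NuRD, had 9203.8 and 9885.2 against 10675 and 8386.7, a log2 difference of -0.01 ± 0.28. Its probe set, like that of Cask, is of a type that can read related transcripts. Smarca4, the motor of SWI/SNF, had 3939.8 and 3200.5 against 2912.8 and 2937.7, a log2 difference of -0.28 ± 0.23.

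No Notch receptor or target passed the test between the young groups. In Notch1, Notch3, Dtx1, Hes1, Ptcra and Myc all 6 tumours lay above all 4 thymocyte arrays, and for Il2ra 5 of 6 lay above both WT arrays. Notch1 had 1825.9 and 1448.1 in WT and 1389.6 and 1697.1 in IkL/L thymocytes. The groups overlapped, and the log2 difference was -0.08 ± 0.3 with a 95% interval from -0.74 to 0.58. The 6 tumours had 4051.8 to 7295.8. A dimmer probe set of Notch1 had 121.6 and 144.7 against 163 and 233.1, a log2 difference of 0.56 ± 0.32 (unadjusted p = 0.115). Notch3 had 544 and 518.8 in WT, 517.3 and 341.2 in IkL/L thymocytes and 562.6 to 1680.7 in tumours, with a log2 difference of -0.34 ± 0.45 between the young groups.

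Dtx1, an E3 ligase that is a Notch target, had 239.1 and 596.5 in WT and 325.1 and 257.7 in IkL/L thymocytes. Both IkL/L arrays lay between the WT arrays, and the log2 difference was -0.38 ± 0.45 with an interval from -1.39 to 0.63. The WT arrays set its size and sign: it was -1.04 without WT replicate 1 (unadjusted p = 0.0455, adjusted p = 1) and 0.28 without WT replicate 2. With fluidics run as a block and within run 2 it was also -1.04 (unadjusted p = 0.0314 and 0.0138, adjusted p = 1 and 0.71). The tumours had 2968.6 to 6298.4. Hes1, a repressor that is a direct target, had 162.8 and 194.2 against 203.8 and 257.5. Its groups did not overlap, yet the log2 difference of 0.37 ± 0.27 was not past the test (unadjusted p = 0.203), and the tumours had 609.5 to 946.1. Ptcra, the invariant chain of the pre-T-cell receptor, had 503.9 and 669.3 against 467.2 and 770.5 (log2 difference 0.05 ± 0.39) and 981.2 to 2286.7 in tumours. Myc, a growth regulator and Notch target, had 202.6 and 261.7 against 233.5 and 174.2 (log2 difference -0.19 ± 0.3) and 461.5 to 753.3 in tumours. Il2ra, which encodes CD25 of the double-negative stage, had 40.2 and 91.4 against 73.6 and 4.6, the last of them under the floor (log2 difference -0.82 ± 0.9) and 85.9 to 529 in tumours.

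**Figure D3:**
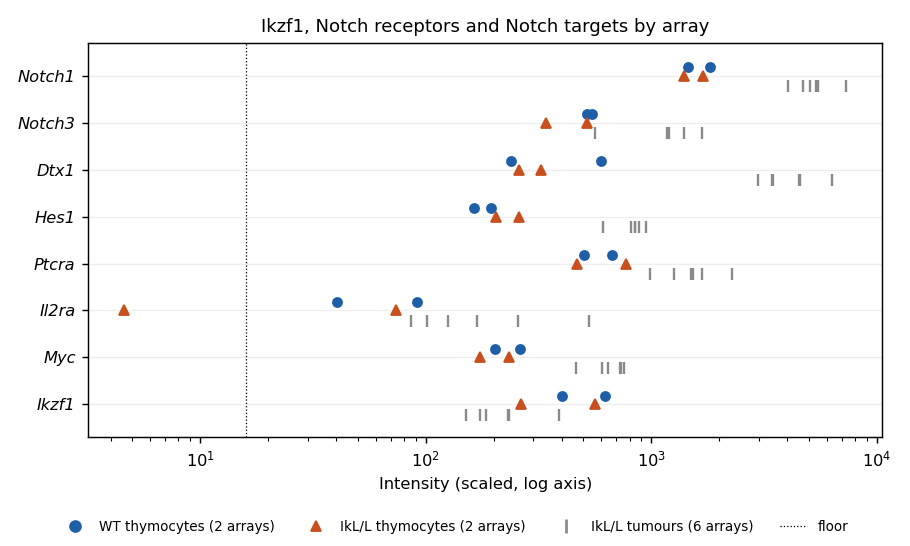
Intensity on a log axis of Ikzf1, Notch receptors and Notch targets in WT thymocytes (circles), IkL/L thymocytes (triangles) and the 6 tumours (grey bars), with the floor as a dotted line. The young groups overlap or adjoin in each gene, and tumours lie to the right for Notch1, Notch3, Dtx1, Hes1, Ptcra and Myc.

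Of 11 tested receptors and signalling components, 0 passed the adjusted or the unadjusted threshold, 2 were higher and 3 lower without overlap (20.8% and 18.5% of all genes), and 6 had an interval within 2-fold. Their median log2 difference was -0.14, against 0.03 over all genes. It ranged from -0.32 without WT replicate 2 to 0.07 without IkL/L replicate 1. Psen2, a catalytic subunit of the gamma-secretase that cleaves Notch, had the smallest p, with 98.4 and 66.8 in WT and 122.4 and 149.1 in IkL/L thymocytes (log2 difference 0.74 ± 0.35, unadjusted p = 0.0638). Rbpj, the DNA-binding partner, had 200.3 and 157.1 against 121.1 and 192.8, and Numb, an inhibitor of Notch, 166.9 and 195.9 against 254 and 196.2. Fbxw7, which marks intracellular Notch for degradation, had 121.8 and 110.8 against 100.5 and 88.1 (log2 difference -0.3 ± 0.29). Of 7 tested targets, 0 passed either threshold and the median log2 difference was -0.19, with a range of -0.38 to 0.16 over the alternatives.

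Genes that mark thymocyte stages showed no difference past the test. Of 15 double-positive genes, 0 passed either threshold, 2 were higher and 2 lower without overlap (20.8% and 18.5% of all genes), and the median log2 difference was -0.03. Dntt, the terminal transferase of receptor rearrangement, had 6339.6 and 7985 in WT and 7245.3 and 9512.6 in IkL/L thymocytes. Cd1d1, which presents lipids to natural killer T cells, had 455.5 and 563.4 against 744.1 and 587.7 (log2 difference 0.38 ± 0.68). Of 12 tested genes listed for mature single-positive cells, 0 passed either threshold and the median was 0.13. Ccr7, the chemokine receptor that leads mature thymocytes into the medulla, had 296.9 and 204.1 against 306.7 and 410.8 (log2 difference 0.53 ± 0.63). Il7r, the receptor chain for interleukin 7, had 197.2 and 247.9 against 297.8 and 320.4 (log2 difference 0.48 ± 0.74). Ly6d, also of this list, was in the opposite direction, and the stage that expresses it was not tested here. It had 4600.3 and 3457.8 in WT and 2002.2 and 1201.6 in IkL/L thymocytes. Its groups did not overlap, and the log2 difference of -1.36 ± 1.11 was not past the test (unadjusted p = 0.247). That error includes the spread of the tumours, which ran from 435 to 7002.9, and is not that of the thymocyte arrays alone.

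Of 14 early progenitor and double-negative genes on the array, 7 were bright enough to test and 0 passed either threshold. Their median log2 difference was 0.17, and it ranged from 0 to 0.45 over the alternatives. Lmo2, a bridging factor of progenitor transcription complexes and a T-cell oncogene, had 73.2 and 77.8 in WT and 109.7 and 130.6 in IkL/L thymocytes (log2 difference 0.67 ± 0.31, unadjusted p = 0.0601). Myb, a factor of progenitors and double-positive cells, was among the brightest and had 7606.6 and 8257.3 against 6898.2 and 8720 (log2 difference -0.03 ± 0.25). Kit and Cd34, receptors of the earliest progenitors, were too dim to test, with 56 to 86.5 and 12.9 to 38.8 in the 4 arrays.

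Genes of the T-cell receptor and of selection likewise gave no call. Of all genes, 0 passed the adjusted threshold, and 1.94% were higher and 1.1% lower at an unadjusted p of 0.05. Of 17 receptor and signalling genes, 0 passed the adjusted threshold and the median log2 difference was -0.06. Lat, the adaptor that links the receptor to its effectors, had 220.5 and 282.7 in WT and 381 and 381.1 in IkL/L thymocytes (log2 difference 0.61 ± 0.27, unadjusted p = 0.0492, adjusted p = 0.999). Zap70, the kinase upstream of Lat, had 5773.2 and 8926.7 against 6933.9 and 4822.6. Of 11 tested genes that the receptor induces during selection, 0 passed either threshold and the median was 0.06. Egr1, Egr2 and Nr4a1, transcription factors of that response, had log2 differences of 0.09, 0.21 and 0.25, each smaller than its standard error. Cd5, whose level follows the strength of the receptor signal, had 2190 and 1859.8 against 2188.4 and 2378.9.

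Among 14 T-lineage transcription factors 0 passed the adjusted threshold, and Id2 alone passed an unadjusted p of 0.05. Id2, an inhibitor of E proteins, had 433.4 and 267.4 in WT and 576.5 and 645.4 in IkL/L thymocytes (log2 difference 0.84 ± 0.34, unadjusted p = 0.0338, adjusted p = 0.999). Its relative Id3 had 1059.9 and 994.4 against 853.1 and 877.8 (log2 difference -0.25 ± 0.53). Gata3 had 429.4 and 298.9 against 488.3 and 361.4, and Bcl6 had 1111 and 1116.6 against 969.8 and 1436.3. The immediate-early gene Fosb had 99.4 and 174.3 against 233.8 and 254.2 (log2 difference 0.89 ± 0.37, unadjusted p = 0.0378, adjusted p = 0.999), while 16 tested immediate-early and heat-shock genes had a median of 0.01.

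Growth and metabolic genes had list medians below that of all genes, with 0 members past either threshold in the 3 lists that follow. Of 25 DNA replication and mitosis genes, 11 were lower and 6 higher without overlap, against 18.5% and 20.8% of all genes. In this list 14 had an interval within 2-fold, and the median log2 difference was -0.22 against 0.03 for all genes. The median was 0 without IkL/L replicate 2 and -0.28 without IkL/L replicate 1. Mcm7, a subunit of the replicative helicase, had 3276.7 and 2735.1 in WT and 2047 and 2064.2 in IkL/L thymocytes (log2 difference -0.54 ± 0.42). Mki67, a marker of cycling cells, was in the other direction, with 2015.1 and 2165.4 against 2278.3 and 2224.5 (log2 difference 0.11 ± 0.3). Of 22 genes of Myc-regulated growth and ribosome biogenesis, 9 were lower and 3 higher without overlap, against the same 18.5% and 20.8% of all genes, and the median was -0.12. Srm, spermidine synthase, had 569.7 and 647.8 against 513.1 and 299.6 (log2 difference -0.63 ± 0.45), by a probe set that can read related transcripts. Of 17 oxidative phosphorylation genes 6 were lower and 0 higher without overlap (18.5% and 20.8% of all genes), the median was -0.04, and 12 had an interval within 2-fold.

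Of 12 tested cholesterol synthesis genes 5 were lower and 1 higher without overlap (18.5% and 20.8% of all genes), with a median log2 difference of -0.22 and a range of -0.37 to 0.23 over the alternatives. Mvd, mevalonate decarboxylase, had 197.3 and 201.5 in WT and 127.6 and 38.3 in IkL/L thymocytes (log2 difference -1.51 ± 0.61, unadjusted p = 0.0319, adjusted p = 0.999). Idi1 had 225.5 in IkL/L replicate 2 and 791.9 to 919.9 in the other 3 arrays, so that 1 array made its difference. Hmgcs1, the synthase that precedes the rate-limiting step, had 229.9 and 227.3 against 398.6 and 304.1 (log2 difference 0.61 ± 0.37). Cell death and p53 genes had a median of 0.15 over 15 genes, with Mcl1 at 783.5 and 892.7 against 1057.5 and 1018.5 and Bcl2 at 522.2 and 595.6 against 462.1 and 402 by its brightest probe set. Another probe set of Bcl2 differed the other way, with 202.5 and 353.2 against 424.6 and 404.2 (log2 difference 0.63, unadjusted p = 0.0834). The 21 interferon and MHC class I genes had a median of -0.06, and the 8 tested cytotoxic and gamma-delta genes a median of 0.21, with 0 past either threshold in these 3 lists.

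**Figure D4:**
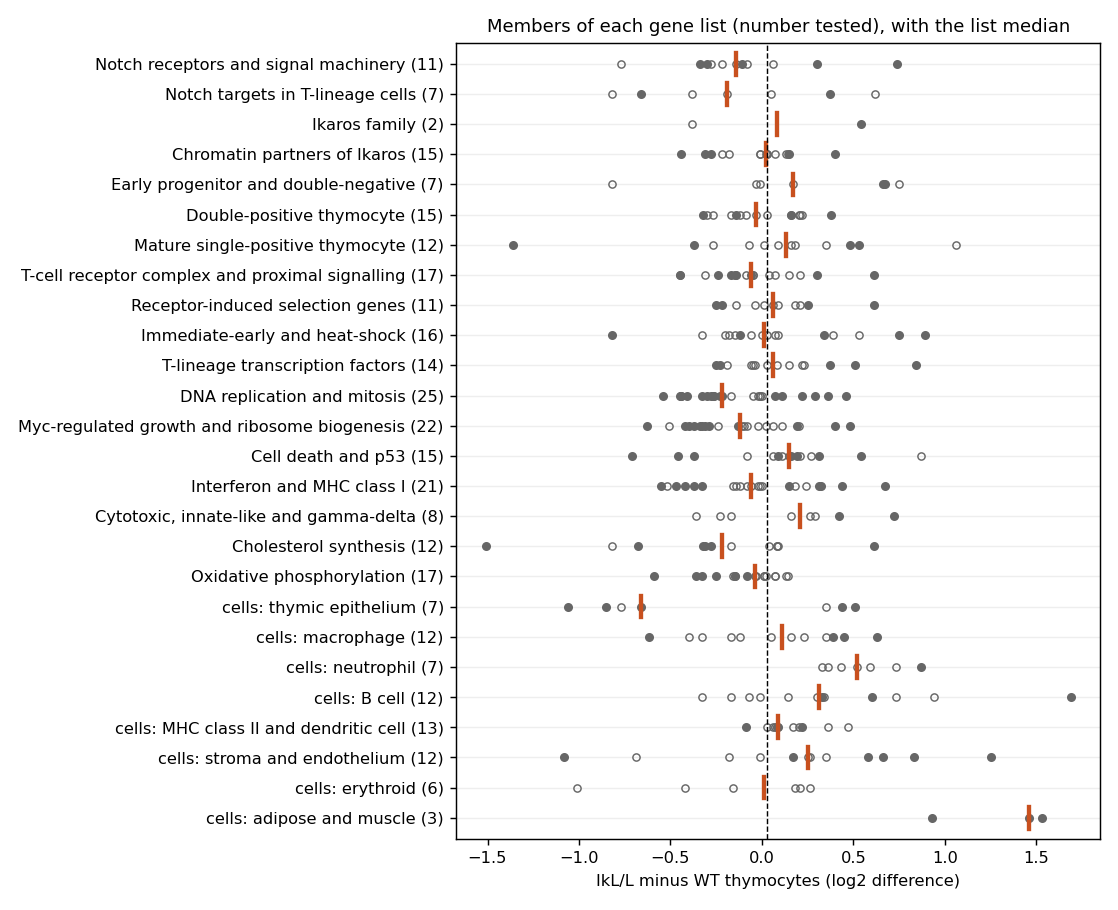
Each row is a gene list with its number of tested members; circles are log2 differences of single genes (filled where the 2 groups of arrays did not overlap), the orange bar is the list median and the dashed line the median of all genes, 0.03. Most medians lie near that line, and lists with few tested members, thymic epithelium (7) and adipose and muscle (3), lie farthest from it.

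Markers of other cells varied widely within a genotype. Of the 7 tested thymic epithelium markers 0 passed the adjusted threshold, and the median log2 difference was -0.66, which became -0.04 without WT replicate 1 and 0.12 without IkL/L replicate 1. The keratin genes Krt8 and Krt18 had 450.7 and 330.3 in WT replicate 1, 213.5 and 156.7 in WT replicate 2 and 125.1 to 159 in the IkL/L arrays (Krt18 log2 difference -0.85 ± 0.38, unadjusted p = 0.0491). Ccl25, an epithelial chemokine that attracts progenitors, had 534 in WT replicate 1 and 217.8 to 224 in the other 3 arrays. Ctsl, a protease of cortical epithelium, had 860.3 in IkL/L replicate 1 and 3029.4 to 4722.6 in the others. In the other direction, Aire, the medullary regulator of self-antigens, had 167.5 and 165.5 in WT and 210.4 and 266.3 in IkL/L thymocytes (log2 difference 0.51 ± 0.55). Ly75, an endocytic receptor of cortical epithelium and dendritic cells, had 152.5 and 137.5 against 243 and 157.9 (log2 difference 0.44 ± 0.59). Of the 7 tested members, 2 were higher and 3 lower without overlap (20.8% and 18.5% of all genes). Foxn1, which defines thymic epithelium, was near the floor, with 10.9 to 21.2. The list's summed intensity was 5745 and 4271 in WT and 2102 and 5974 in IkL/L thymocytes.

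Neutrophil markers varied within each genotype. Their summed intensity was 2862 and 1354 in WT and 1549 and 5105 in IkL/L thymocytes, and S100a8, a calcium-binding protein of neutrophils, had 647.2 and 289 against 336.9 and 1258.5. The median log2 difference of the 7 tested members was 0.52, and it was -0.36 without IkL/L replicate 2 and -0.01 without WT replicate 2. B-cell markers had summed intensities of 8190 and 5448 against 5765 and 7004 and a median of 0.31 over 12 tested genes. Pou2af1, described above, was the one member past an unadjusted p of 0.05, and Cd79a, a chain of the B-cell receptor, had 215.5 and 181.2 against 221.6 and 277.1. Ebf1, a defining B-cell factor, was at the floor in all 4 arrays, and Pax5 had 144.3 and 28.1 against 90.6 and 165.3. The part of B cells in the Pou2af1 value was not tested.

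Stromal and endothelial markers had a median log2 difference of 0.25 over 12 tested genes and summed intensities of 1316 and 1998 in WT and 1931 and 2679 in IkL/L thymocytes. The median was 0.85 without IkL/L replicate 1 and 0.06 without IkL/L replicate 2. Fn1, fibronectin, had 81.9 and 57 against 116.9 and 226.6 (log2 difference 1.25 ± 0.53, unadjusted p = 0.0384, adjusted p = 0.999). Pecam1, an adhesion molecule of endothelium, lay in the other direction without overlap, with 92.3 and 122.4 against 37.8 and 66.8 (log2 difference -1.08 ± 0.96). Of the 10 adipose and muscle markers on the array, only 3 muscle genes were bright enough to test, with values of 20.9 to 174.7 in the 4 arrays. These 3 were higher in IkL/L thymocytes without overlap, as were 20.8% of all genes. In Myh4 and Tnnc2 neither WT array reached its median, so these 2 entered the test through IkL/L arrays or tumours. The 10 markers summed to 260 and 419 in WT and 489 and 689 in IkL/L thymocytes. Ckm, muscle creatine kinase, had 30.3 in WT replicate 1, 109.2 in WT replicate 2 and 153.5 and 162.6 in IkL/L thymocytes (log2 difference 1.46 ± 0.66, unadjusted p = 0.0518). The list median of 1.46 was 0.53 without WT replicate 1. Myoglobin, Mb, was at 3.6 to 26.1 in the 4 arrays and Tnni2 was under the floor in all of them. Atp2a1, the muscle calcium pump named above, was also higher in both IkL/L arrays, as its selection required. It had 56.8 and 46.7 in WT and 132 and 119.3 in IkL/L thymocytes. Within a genotype Atp2a1 was lower in replicate 2, and Ckm and the summed markers were higher. Each of these is a difference between 2 single arrays, from which nothing is drawn. The part of muscle in the Atp2a1 value was not tested. Macrophage, MHC class II and erythroid markers had medians of 0.11, 0.09 and 0.01, with 0 members past either threshold.

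**Figure D5:**
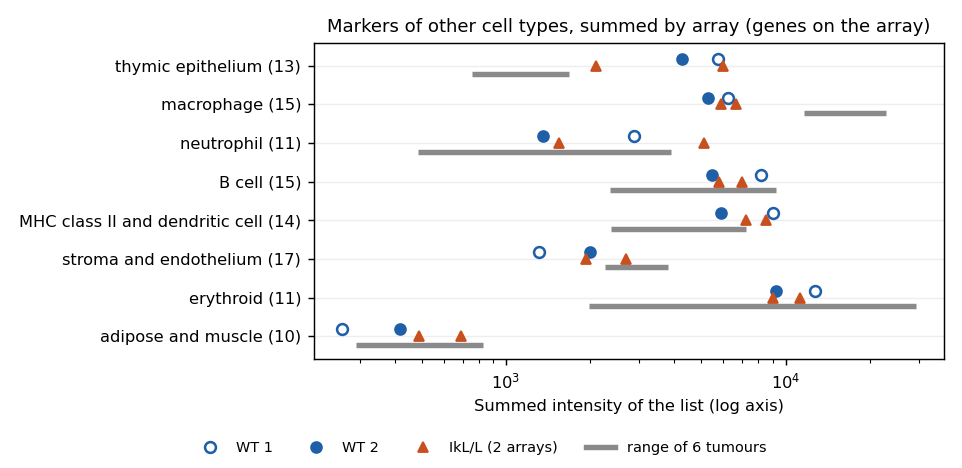
Summed intensity on a log axis of each list of markers of other cell types (number of genes on the array) in WT thymocytes (open circle replicate 1, filled circle replicate 2) and IkL/L thymocytes (triangles), with the range of the 6 tumours as a grey bar. In 7 of the 8 lists the 2 young groups overlap, and adipose and muscle sums are 260 and 419 in WT against 489 and 689 in IkL/L.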

How the data were processed

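Intensities were deposited by the authors as 1 table of 12488 probe sets on 10 MG_U74Av2 arrays. The sources used here did not name the software behind them. The equal trimmed means (300.2) are those of values already scaled, so no further scaling was applied. Of the probe sets, 66 were controls and were left out, 10855 had 1 gene symbol in the platform annotation, 396 several and 1237 none, and 10839 matched RefSeq genes of GRCm38.p6. No column belonged to another sample (0).

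Values below 16, the 20th percentile, were raised to it before log2 was taken. A probe set was tested where it lay above the array median on at least 2 arrays, which left 7172. A linear model with a mean for each of the 3 groups was fitted to all 10 arrays with limma (version 3.58.1, R 4.3.3), with eBayes moderation (7 residual, 3.17 prior degrees of freedom). Benjamini-Hochberg adjustment covered every tested probe set. Errors of log2 differences are standard errors, from a spread pooled over the 3 groups. Folds are 2 to the power of the log2 difference, and a fold against a group wholly at the floor is a lower bound.

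Genes named were those passing the adjusted threshold, the 15 per direction with the smallest unadjusted p and no overlap, up to 4 members per list by unadjusted p, and 8 genes always read (Dtx1, Hes1, Ikzf1, Il2ra, Myc, Notch1, Notch3, Ptcra). Further list members were named for their function after their values were seen. A gene is read by its brightest tested probe set. The comparison, the lists and the genes were chosen with earlier results of these data known. Lists are described by counts and medians with no set test. Chip lot, day, fluidics run and module were read from the scanner records. The 17 alternatives changed the floor, the filter, the scaling, the variance model, the arrays in the fit or the batch term.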

Additional observations from a re-analysis of the deposited data

Results flagged for a closer look

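Of the 39 named genes and probe sets read in the 6 tumours, 3 had 1 tumour far from the others, by a gap of more than 0.625 of the whole range. Chance alone flags a small share of such groups, about 5% by the threshold's own 95% level. For 160799_at, tumour 2 had 23.3 and the next highest tumour 7.9, both below the WT thymocytes (155.3 and 177.6). For H2bc22, tumour 6 had 447.6 and the next 230.8, with WT thymocytes at 44.9 and 53.2. For Ikzf1, tumour 3 had 387.6 and the next 232.5, below both WT thymocyte arrays (400.6 and 625.9).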

How the results depend on the processing

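The count of probe sets past the adjusted threshold, 1 in the values reported, was 1 with a pseudocount in place of the floor, with a stricter filter, with quantile normalization and with median centring, and the same probe set, which has no gene symbol, was called in each. It was 0 with a floor at the 10th percentile, with the 4 thymocyte arrays alone, with an intensity trend, with 1 probe set per gene (where that probe set was not tested), with fluidics run or module as a block, and within run 2, and it was 2 with a floor at the 30th percentile, where Napsa was added. Without a filter it was 15, 8 higher and 7 lower in IkL/L thymocytes. Of these, 1 had been tested in the reported fit, and in 10 a whole group lay at the floor. Leaving out 1 thymocyte array at a time gave 0 to 2 calls: 0 without WT replicate 1, Stmn2 alone without WT replicate 2 (log2 difference 3.31, adjusted p = 0.0386; named after its values were seen, with 13.9 and 118.7 in WT and 167.9 and 150.8 in IkL/L thymocytes), the unnamed probe set with Cask (adjusted p = 0.0496) without IkL/L replicate 1, and the unnamed probe set without IkL/L replicate 2. In the fits that left out an array, the lone array of a group was assumed to vary like the other groups. With the 4 thymocyte arrays alone, 407 probe sets had an unadjusted p under 0.05 (6.31%). Across 39 named genes and probe sets and 631 values under the alternatives, the sign changed in 15 values of 6 genes, none of them past the test: Il2ra (0.28) and Ikzf1 (0.16) without IkL/L replicate 2, Notch1 (0.06 to 0.30) in 5 alternatives, Dtx1 (0.24 and 0.28) in 2, Ptcra (-0.31 to -0.10) in 5 and Myc (0.02) in 1. The called probe set kept its sign wherever it was tested. Of 459 list medians, 76 moved, and the cause was not tested. No paired analysis was possible because the labels gave the groups no shared replicate numbers. The number of arrays and signals near the floor limit the comparison: the 95% interval reached past 2-fold for most probe sets, and dim ones such as Kit or Cd34 were not tested.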
